A study of Homo sapiens with 12 samples.

Results

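The 26S proteasome genes of A375 cells were described across 4 treatment groups of RNA-seq libraries. The members were all genes whose symbol starts with PSMA, PSMB, PSMC, PSMD, PSME, PSMF or PSMG and holds no hyphen, which gave 49 of the 20263 genes listed. They were 8 alpha and 7 constitutive beta subunits of the 20S core, 4 inducible or tissue-restricted beta subunits, 6 ATPases and 3 other subunits of the base, 8 lid subunits, 3 chaperones of the base, 4 activators, 1 inhibitor, 4 core assembly chaperones and PSMC3IP. PSMC3IP is a partner in meiotic recombination that the symbol brings in and is not a proteasome subunit. Of the 49, 47 passed the filter on low counts. PSMA8, the alpha subunit of the testis, and PSMB11, the beta subunit of the thymus, had a count of 0 in all 12 libraries, which allows up to 0.0684 to 0.0784 CPM (a gene's count scaled to a common library size) in a library when 3 counts are taken as the limit.

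The proteasome degrades proteins marked with ubiquitin. Its 20S core is a barrel of alpha rings that gate the entrance and beta rings that hold the proteolytic sites of PSMB5, PSMB6 and PSMB7. The 19S particle on the ends recognises ubiquitin, removes it in the lid and unfolds the substrate with the ATPases of the base. In the immunoproteasome, PSMB8, PSMB9 and PSMB10 take the places of PSMB5, PSMB6 and PSMB7 and favour peptides suited to MHC class I, and the PSME1 and PSME2 proteins form the PA28 cap. Transcription of the constitutive genes is known to be raised as a set by NRF1, the product of NFE2L1, when proteasome activity is low, and that of the inducible genes by interferon.

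A375 is an established human melanoma line, labelled as wild type. The cells were left as controls (Ctrl) or were treated with DBIC, hemin (a soluble form of heme) or DBIC+Hemin, with 3 libraries in each group. DBIC, written DdBIC in the study's paper, is a benzimidazole carboxylate ester studied as an inducer of pyroptosis, a lytic form of cell death, and the design asks how expression differs when hemin is added to it. The doses and durations used for these libraries are not given in the sources used here. The labels do not say that the 3 libraries of a group came from separate cultures, so p-values measure the spread between these libraries, which may be technical.

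The total count was 37951275 to 44358912 per library, and the members took 0.708% to 0.794% of it. SOX10, a melanocyte lineage factor, was at 548 to 769 CPM and AXL and NGFR, markers of dedifferentiated melanoma, were at 450 to 556 and 120 to 153 CPM, while the pigment genes PMEL, MLANA, TYR and DCT were at most 1.11 CPM. The leukocyte marker PTPRC had no count in any library, CD3E was at most 0.0523 CPM, and LYZ and CD14 were at 1.35 to 2.19 and 0.409 to 1.30 CPM. The summed melanocyte lineage markers, nearly all SOX10, were at 643 to 670 CPM in Ctrl and 736 to 797 CPM in DBIC. They were at 571 to 578 CPM in hemin and 577 to 666 CPM in DBIC+Hemin. The summed epithelial markers, nearly all KRT8 and KRT18, were at 854 to 903, 961 to 983, 879 to 902 and 895 to 937 CPM in the same groups. The summed dedifferentiated melanoma markers were at 643 to 671 CPM in Ctrl, 574 to 599 CPM in DBIC, 674 to 708 CPM in hemin and 677 to 691 CPM in DBIC+Hemin, lowest in the DBIC libraries. Their part in the results was not tested. In such bulk libraries fewer cells of a kind and less RNA per cell cannot be told apart.

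Levels were compared between genes only by the deposited TPM, which is scaled by transcript length. In the 3 Ctrl libraries the 14 core alpha and beta genes with counts did not stand at one level. They ran from 87.2 ± 2.90 TPM for PSMA5 to 1126 ± 19.5 TPM for PSMA7 (SD, n = 3), a 12.9-fold span, although their proteins enter the core in equal numbers. PSMB4, a structural beta subunit, was next at 1015 ± 8.22 TPM, and PSMB2 was the lowest of the constitutive beta genes at 213 ± 4.28 TPM, which did not stand apart from PSMB6 at 215 ± 7.21 TPM. The 17 base and lid genes ran from 72.4 TPM for PSMD12 to 508 TPM for PSMD8, a 7.02-fold span. The inducible beta genes were far below their constitutive counterparts, with PSMB8 at 39.6 ± 0.323, PSMB10 at 24.0 ± 2.10 and PSMB9 at 14.1 ± 3.25 TPM. The assembly chaperones were low as well, from 23.4 TPM for PSMG4 to 93.0 TPM for PSMG3, and the base chaperones PSMD5, PSMD9 and PSMD10 lay at 36.4 to 44.6 TPM.

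**Figure D1:**
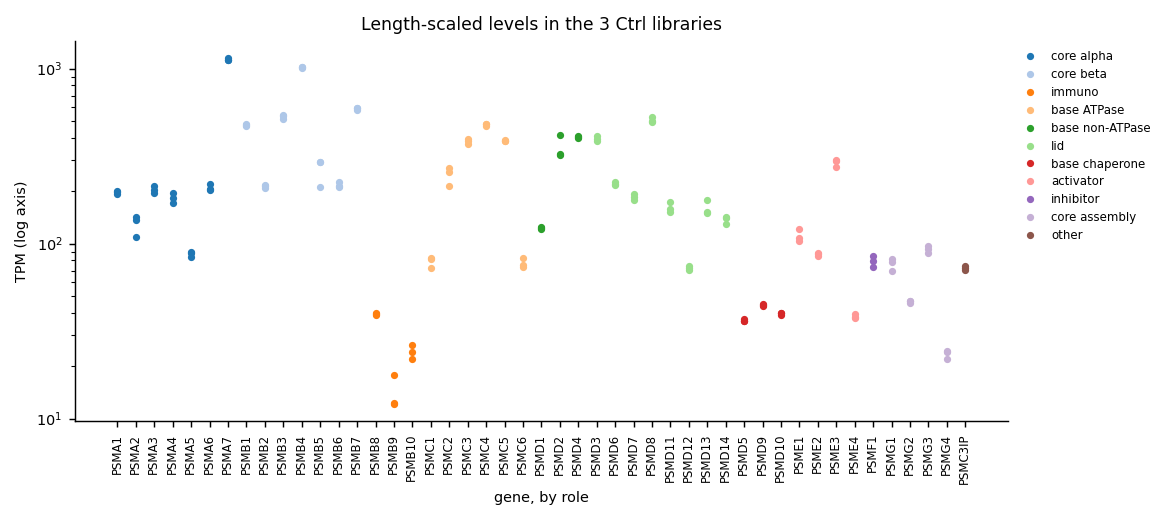
Level of each proteasome gene with counts in the 3 Ctrl libraries, in TPM on a log axis, 1 point per library, coloured by role. PSMA7 at 1126 TPM and PSMB4 at 1015 TPM stood at the top, and PSMB9 at 14.1 TPM at the bottom.

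A part of the proteasome genes was lower with DBIC, by small amounts. Of the 47 members tested, 16 (34%) were called lower in DBIC than in Ctrl at an adjusted p under 0.05, beside 17.2% of all 14287 genes tested, and 1 was called higher, PSMC3IP, beside 20% of all genes. The fold changes were modest, with a median log2 fold change of -0.11 over the 47 members against -0.0082 over all genes tested. The estimate lay below 0 for 41 of the 47 members (87.2%), against 51.1% of all genes tested. For 25 members (53.2%) the 3 DBIC libraries were all below the 3 Ctrl libraries, which was so for 24.1% of all genes tested. The median over the members, taken in each library as the difference from the Ctrl mean, was -0.10, -0.11 and -0.12 in the DBIC libraries and -0.0099 to 0.021 in the Ctrl libraries, so the groups did not overlap. With upper-quartile factors in place of TMM the median of all genes shifted to -0.069, 24 members were called lower and the share of higher among all calls went from 53.8% to 40.0%, while the median of the members minus that of all genes stayed at -0.098.

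**Figure D2:**
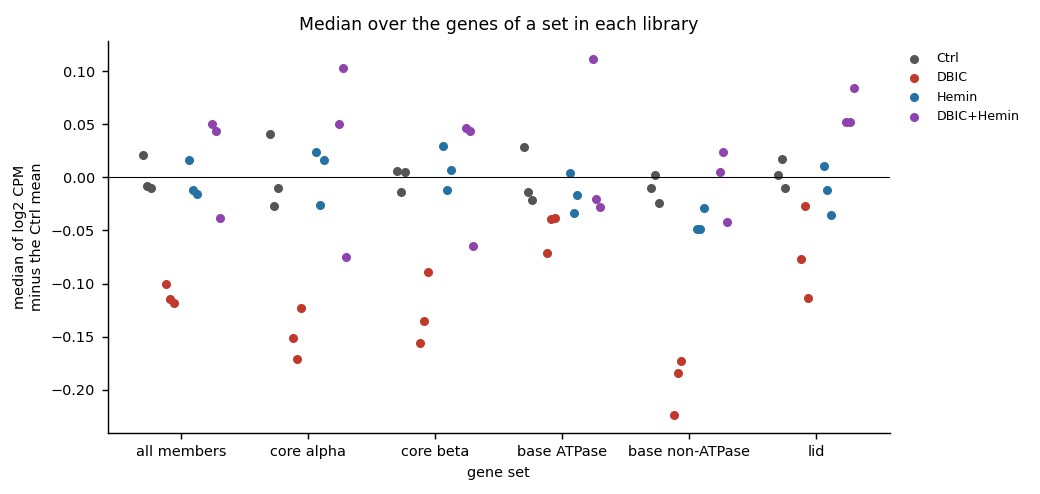
Median over the genes of a set of log2 CPM minus the Ctrl mean, 1 point per library, for all 47 members and for 5 subunit classes, coloured by group. For all members the 3 DBIC libraries lay at -0.12 to -0.10 and the other 9 libraries at -0.039 to 0.050.

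Among the proteolytic subunits 1 of 3 was called lower in DBIC against Ctrl. PSMB5, which carries the chymotrypsin-like site and is the target of proteasome inhibitor drugs (chr14:23016543-23035230, minus strand, hg38), was at 158, 116 and 156 CPM in Ctrl and at 109, 109 and 106 CPM in DBIC. The groups did not overlap, but the second Ctrl library stood close to the DBIC libraries. The log2 fold change was -0.41 ± 0.11 (SE), a fall of 24.6% (edgeR, Benjamini-Hochberg adjusted p = 0.0141). The call was lost without the first Ctrl library (-0.33, adjusted p = 0.0524) or the third (-0.35, adjusted p = 0.0526) in the same edgeR test. PSMB6, the caspase-like subunit, was at 89.7, 85.1 and 85.8 CPM in Ctrl and at 75.5, 75.3 and 81.6 CPM in DBIC, which gave -0.17 ± 0.068 and missed the threshold (edgeR adjusted p = 0.0799). PSMB7, the trypsin-like subunit, gave -0.080 ± 0.038 (edgeR adjusted p = 0.125).

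The other core genes had smaller changes than PSMB5. PSMB2 was at 274, 288 and 282 CPM in Ctrl and at 248, 260.2 and 239.6 CPM in DBIC, which gave -0.18 ± 0.034 on the log2 scale (edgeR adjusted p = 0.00192). PSMB1 fell by 0.16 and PSMB4 by 0.094 on the log2 scale, so that 4 of 7 constitutive beta genes were called lower. The call of PSMB4 was lost without the first or second Ctrl library or the second DBIC library (log2 fold changes of -0.094, -0.088 and -0.086). Of the 7 alpha genes tested, 3 were called lower, namely PSMA6 (-0.21 ± 0.055), PSMA7 (-0.19 ± 0.045) and PSMA4 (-0.13 ± 0.036). PSMA7, the most abundant of the core genes, went from 531, 520.3 and 518 CPM to 460.4, 449 and 469.6 CPM, with no overlap. PSMA4 was not called without the third Ctrl library (-0.11) or the first DBIC library (-0.10). The 7 alpha and 7 beta estimates were all below 0, the smallest being that of PSMA1 at -0.042.

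In the 19S particle, the 3 members that are base subunits other than ATPases were called lower with DBIC. PSMD1, a scaffold of the base, was at 175, 177 and 178 CPM in Ctrl and at 151, 156 and 156 CPM in DBIC (-0.19 ± 0.027, edgeR adjusted p = 0.000202). PSMD4, a ubiquitin receptor, was at 256, 265 and 254 CPM in Ctrl and at 230.1, 228 and 229 CPM in DBIC (-0.18 ± 0.026, edgeR adjusted p = 0.000291). For both, each DBIC library was below each Ctrl library and the spread within groups was small. PSMD2, the other scaffold, fell by 0.19 ± 0.056 (edgeR adjusted p = 0.0174), with the third DBIC library at 456 CPM beside 396 and 395 CPM. Its call was lost without the first Ctrl library (-0.15), without the first or second DBIC library (-0.16) and in a fit of the groups compared alone (-0.20).

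None of the 6 base ATPases and none of the 8 lid genes was called by edgeR in DBIC against Ctrl, and 3 and 2 of them passed an unadjusted p of 0.05, as did 6504 of all 14287 genes tested. The ATPase estimates ran from -0.14 for PSMC1 to 0.054 for PSMC4 and those of the lid from -0.19 for PSMD11 to 0.029 for PSMD6. PSMC4 was at 354, 361 and 347 CPM in Ctrl and at 369, 366 and 367 CPM in DBIC, the reverse order of most members, and was not called (edgeR adjusted p = 0.105). PSMD14, the lid enzyme that cuts ubiquitin from the substrate, gave -0.065 ± 0.051 (edgeR adjusted p = 0.35). PSMD8 in the lid was at 320.3, 334 and 248 CPM in DBIC, with the third library below the others, and gave -0.18 ± 0.088. Whether these classes differ in response was not tested. PSMC1 shares 75.8% of its exon bases with NRDE2 on the other strand, and the use of strand in counting is not given in the sources used here, so its reads may be partly those of NRDE2.

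The 2 largest falls among the members in DBIC against Ctrl were those of chaperones. PSMD10, or gankyrin, which helps to assemble the base (chrX:108084207-108091618, minus strand), was at 22.2, 22.7 and 23.5 CPM in Ctrl and at 16.3, 15.9 and 18.4 CPM in DBIC. The fall was 25.9%, or -0.43 ± 0.070 as a log2 fold change (edgeR adjusted p = 0.00058). PSMD10 has 3 numbered pseudogenes in the GENCODE 29 annotation. Of the 49 members, 10 have such pseudogenes, among them PSMC1 with 13 and PSMA6 with 4. How reads shared with pseudogenes were counted is not given in the sources used here. The other base chaperones, PSMD5 (0.015 ± 0.042) and PSMD9 (-0.018 ± 0.049), were not called, with 95% intervals of -0.077 to 0.11 and -0.13 to 0.090. PSMG4, which pairs with PSMG3 to build the alpha ring (chr6:3231403-3303373, plus strand), was at 12.3, 13.5 and 12.4 CPM in Ctrl and at 9.50, 8.91 and 9.86 CPM in DBIC. It fell by 25.8%, or -0.43 ± 0.069 as a log2 fold change (edgeR adjusted p = 0.000524). PSMG3, its partner, had the opposite sign at 0.29 ± 0.15 but with 62.2, 48.0 and 52.0 CPM in DBIC it was not called (edgeR adjusted p = 0.159). PSMG1 and PSMG2, the other pair of core chaperones, gave -0.059 ± 0.049 and -0.095 ± 0.097 and were not called.

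**Figure D3:**
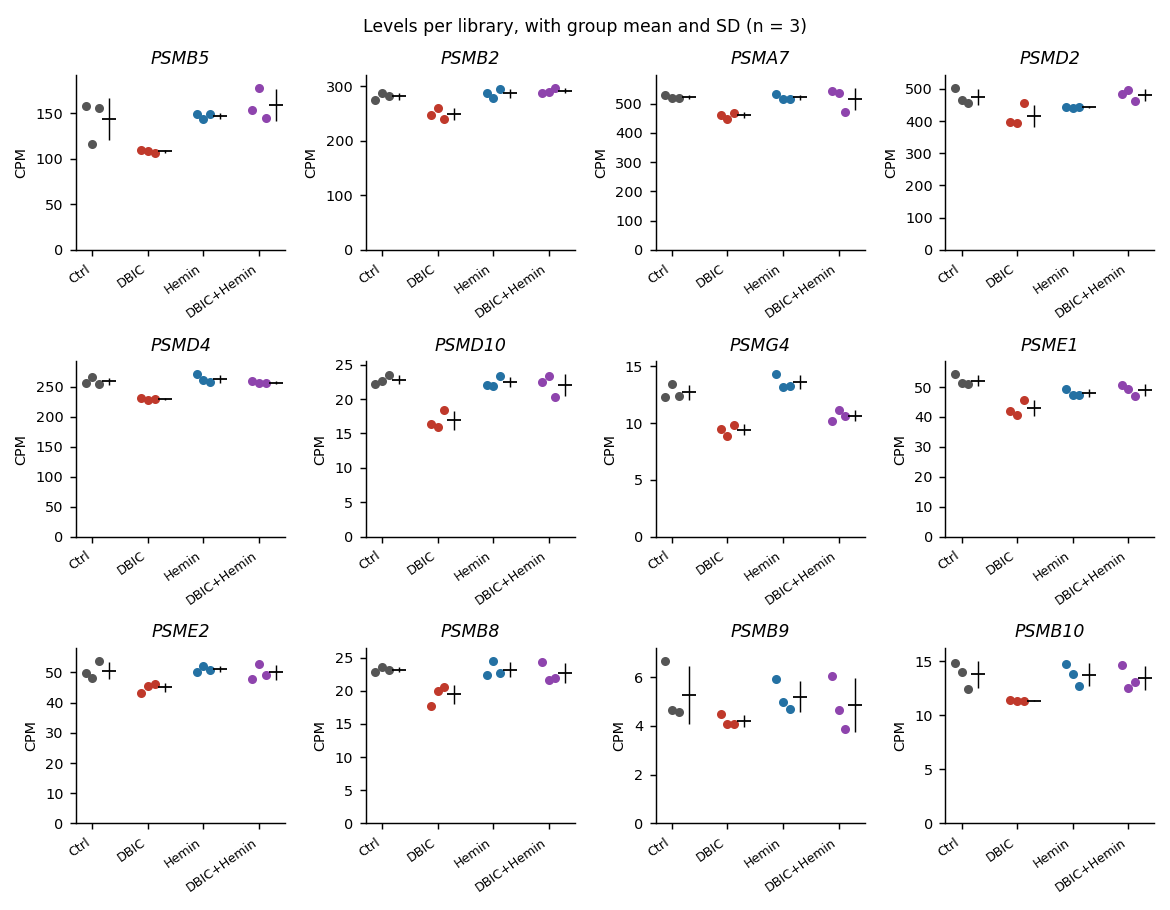
CPM of 12 proteasome genes in the 12 libraries, 1 point per library in order of replicate number, with the group mean as a short line and the SD (n = 3) as a vertical bar, on axes that start at 0. PSMD10 and PSMG4 were lower in all 3 DBIC libraries, and of the pair PSMG4 was also low in DBIC+Hemin, at 10.2 to 11.2 CPM.

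Of the 4 activators, 2 were called lower with DBIC. PSME1 was at 54.2, 51.4 and 50.8 CPM in Ctrl and at 42.1, 40.7 and 45.8 CPM in DBIC (-0.28 ± 0.051, edgeR adjusted p = 0.00125). PSME2, the partner of PSME1 in PA28, was at 49.8, 48.1 and 53.7 CPM in Ctrl and at 43.3, 45.6 and 46.2 CPM in DBIC (-0.17 ± 0.052, edgeR adjusted p = 0.0258). The call of PSME2 was lost without the third Ctrl library (-0.12), without the first DBIC library (-0.14) and in a fit of the groups compared alone (-0.17). PSME3, the nuclear activator PA28 gamma, gave -0.15 ± 0.28 and PSME4, the nuclear activator PA200, 0.045 ± 0.064. The error of PSME3 is wide. The third hemin library was at 127 CPM, beside 302 to 347 CPM in the other 11, and PSME3 is the 1 of 46 members with over 200 counts in every library whose ratio of count to FPKM differed between libraries by more than 1.5 times, as it did for 6.95% of all such genes. PSMF1, the inhibitor PI31, was at 105, 78.6 and 75.5 CPM in DBIC and gave -0.018 ± 0.18, an interval of -0.43 to 0.39.

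Of the 3 inducible beta genes with counts, 2 were called lower with DBIC. PSMB8 was at 22.8, 23.6 and 23.1 CPM in Ctrl and at 17.8, 19.95 and 20.6 CPM in DBIC (-0.25 ± 0.068, edgeR adjusted p = 0.013). PSMB10 was at 14.9, 14.0 and 12.5 CPM in Ctrl and at 11.4, 11.4 and 11.3 CPM in DBIC (-0.28 ± 0.085, edgeR adjusted p = 0.0231). The call of PSMB10 was lost without the first Ctrl library (-0.22), without the second (-0.27) and without any 1 of the DBIC libraries (-0.28 each). PSMB9 rested on 165 to 268 counts per library. It had 6.65, 4.63 and 4.55 CPM in Ctrl and 4.48, 4.06 and 4.07 CPM in DBIC, and was not called (-0.33 ± 0.19, edgeR adjusted p = 0.196). As a share of the TPM of its pair with PSMB5, PSMB8 was 13.2% ± 2.31 in Ctrl, 14.1% ± 1.20 in DBIC, 12.6% ± 1.06 in hemin and 11.7% ± 1.29 in DBIC+Hemin (SD, n = 3). The 3 DBIC libraries (13.0%, 14.1% and 15.4%) were above the 3 DBIC+Hemin libraries (12.4%, 10.2% and 12.4%), and the other groups overlapped with both. The share of PSMB9 with PSMB6 was 6.11% in Ctrl and 5.53% in DBIC, and that of PSMB10 with PSMB7 3.91% and 3.44%. These shares are a description with no test. PSMB8 and PSMB10 share 20.6% and 34.8% of their exon bases with other genes.

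Promoter sequences were read for the members because the inducible genes and PA28 are known interferon targets. RefSeq windows of 300 bases (250 before and 50 after the start, GRCh38.p14) were at hand for 43 members and gave the letters GAAANNGAA, a core of the interferon-stimulated response element, on either strand in 8 of them (18.6%), against 2693 of 27305 genes (9.86%). The 8 are shown with 10 bases on either side, 5′ to 3′ along the strand of the gene. The matched letters are in capitals and show the reverse complement of the searched letters where the match is on the other strand.

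PSMB8 (chr6:32844032-32844060): atctgtggctTTCGCTTTCacttcctcct

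PSMB10 (chr16:67936853-67936881): gggtaaaggcGAAAGCGAAagcaggaagt

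PSME1 (chr14:24136190-24136218): ccctaccgctTTCGCTTTCccttcgcggt

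PSME2 (chr14:24146620-24146648): cctggggagtGAAAGCGAAagcccgggcg

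PSMG4 (chr6:3258904-3258932): ttccggggccGAAAGCGAAagcgcgctcg

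PSMA4 (chr15:78540155-78540183): atagtgaagaGAAAATGAAaggagagcgc

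PSMB4 (chr1:151399495-151399523): tcgtctacagGAAAAAGAAagaaatgaca

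PSMC2 (chr7:103347626-103347654): gtggggaaggGAAAGGGAAgacaccaccg

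The matches of PSMB8, PSMB10, PSME1, PSME2 and PSMG4 hold the same 9 letters, on the gene's strand or the opposite one. Of the 8 members with a match, 7 were called lower in DBIC against Ctrl, with a median log2 fold change of -0.21, and PSMC2 (-0.062 ± 0.045) was not. Of the 33 members tested that had a window and no match, 6 were called lower, with a median of -0.076. Of all genes tested, with or without the letters, 17.2% were called lower. The 6 members without a window were PSMA7, PSMB1, PSMB6, PSMB7, PSMD4 and PSMG3, and PSMA7, PSMB1 and PSMD4 were called lower. The difference between members with and without a match was described and not tested, and a match of letters does not show that a factor binds. The letters TGACNNNGC, a core of the antioxidant response element that NRF1 and NRF2 also read, were found in 15 of the 43 members (34.9%) and in 4384 of the 27305 genes (16.1%). Of these 15, 4 were called lower with DBIC (median -0.080), and of the 26 tested without it 9 were (median -0.12).

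**Figure D4:**
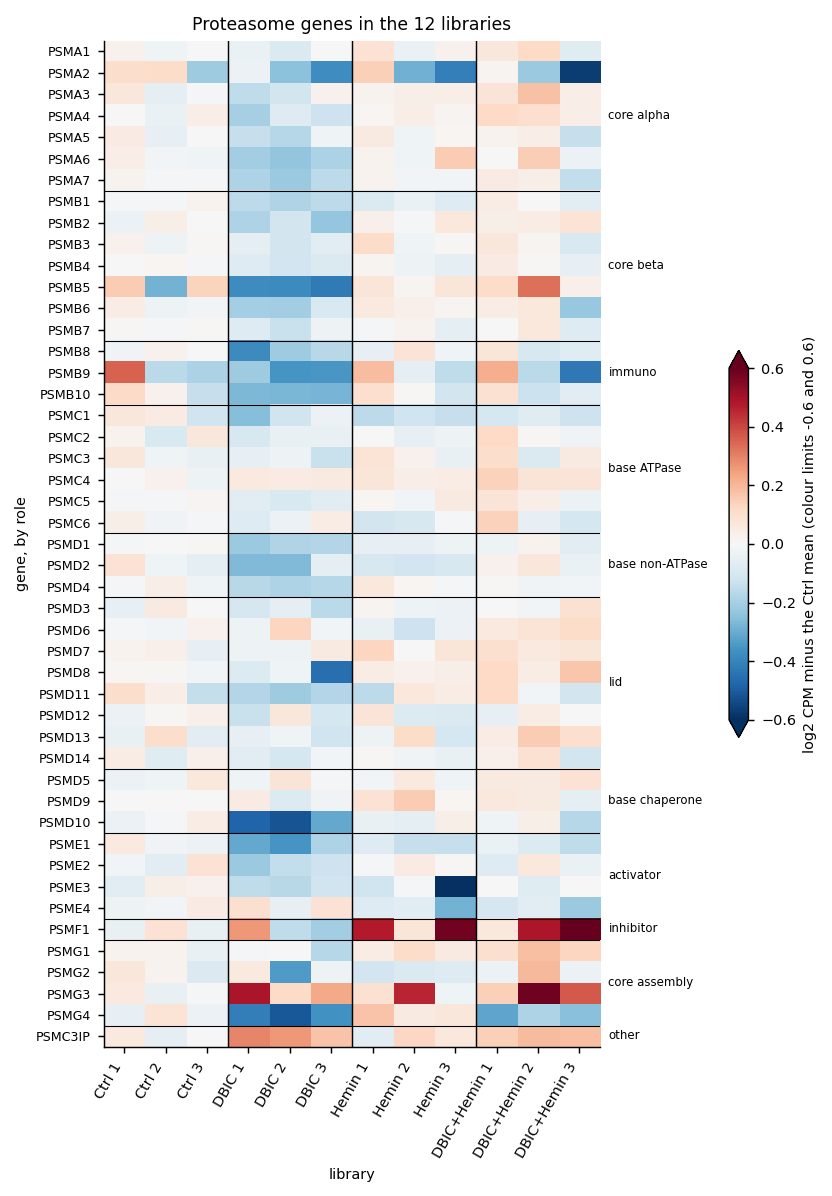
Log2 CPM minus the Ctrl mean for the 47 proteasome genes tested (rows, ordered by role) in the 12 libraries (columns), with colour limits at -0.6 and 0.6. The DBIC columns were lowest for PSMD10, PSMG4 and PSMB5, while the rows of PSMF1, PSMG3 and PSMA2 varied between libraries of a group.

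Many of these genes were higher when hemin was added to DBIC. In DBIC+Hemin against DBIC, 20 of the 47 members (42.6%) were called higher, beside 13.5% of all genes tested, and 0 were called lower, beside 18.4%. By the unadjusted p of 0.05 in edgeR, 1 member was lower, PSME4 (-0.17 ± 0.064, edgeR adjusted p = 0.0633). That threshold was passed by 5918 of all 14287 genes tested, in either direction. DESeq2 called 22 members higher and 0 lower, beside 2091 and 2614 of all genes tested. The median log2 fold change was 0.13 over the members and -0.010 over all genes tested, and 44 of the 47 estimates were above 0. The median over the members in each library, as the difference from the Ctrl mean, was 0.050, 0.043 and -0.039 in DBIC+Hemin, so that the third library stood below the others but above the DBIC libraries. Without it, 21 members were called higher and the median log2 fold change was 0.16. For 27 members (57.4%) the 3 libraries with both agents were all above the 3 DBIC libraries, against 19.8% of all genes. This comparison and DBIC against Ctrl share the DBIC libraries, so the values of the members in each are given side by side and not as independent results. With upper-quartile factors the median of all genes shifted to 0.051 and 32 members were called higher. The share of higher among all calls then went from 42.4% to 59.2%. Without the second DBIC library, 13 members were called higher and 1 lower.

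PSMB5 had the largest rise among the members called, from 109, 109 and 106 CPM in DBIC to 153, 178 and 145 CPM in DBIC+Hemin. This was 47.1% higher, or 0.56 ± 0.11 as a log2 fold change (edgeR adjusted p = 0.00316). PSMD10 returned to 22.4, 23.3 and 20.2 CPM, within or near its Ctrl range of 22.2 to 23.5 CPM (0.38 ± 0.070 against DBIC, edgeR adjusted p = 0.00169). PSMD8 (0.29 ± 0.088), PSMA6 (0.25 ± 0.055), PSMB10 (0.24 ± 0.085), PSMB2 (0.23 ± 0.034), PSMB8 (0.22 ± 0.068) and PSMA4 (0.22 ± 0.036) followed. PSMB8 was not called without the first DBIC library (0.16) or the first DBIC+Hemin library (0.17). The value of PSMD8 fell to 0.17 without the third DBIC library, still called, and its call was lost without the first (0.28) or the third (0.26) DBIC+Hemin library. PSMB10 (edgeR adjusted p = 0.0484) stood at the threshold and lost its call in 10 of 19 alternatives, among them without the second Ctrl library, any 1 DBIC library, the second hemin library or the first or the third DBIC+Hemin library, with values of 0.18 to 0.26 where it was lost. PSMB4 (0.075 to 0.096), PSMC5 (0.077 to 0.098) and PSMA7 (0.13 to 0.15) lost theirs without the second DBIC library or the first or second DBIC+Hemin library. In a fit of the groups compared alone, 15 members were called higher and 0 lower, beside 1644 and 2088 of 14061 genes. PSMB4, PSMC5, PSMA7, PSMB8, PSMA3 and PSMD8 were among those that lost their calls there. Their values were 0.11 to 0.30 and their edgeR adjusted p 0.0517 to 0.111.

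By role, 4 of 7 alpha and 4 of 7 constitutive beta genes tested were called higher in DBIC+Hemin against DBIC. So were 2 of 3 inducible beta genes and 3 of 3 members of the base other than ATPases. Also called higher were 1 of 6 ATPases (PSMC5, 0.10), 2 of 8 lid genes (PSMD8 and PSMD3) and 1 of 3 base chaperones (PSMD10). PSMD2 (0.21 ± 0.056), PSMD1 (0.17 ± 0.027) and PSMD4 (0.16 ± 0.026) rose in the base. Of the activators, PSME1 (0.19 ± 0.051) and PSME2 (0.15 ± 0.052) rose. PSME1 was not called without the first (0.18) or second DBIC library (0.16) or the first DBIC+Hemin library (0.16), PSMD2 was not called without the first or second DBIC library (0.18 each) or the second DBIC+Hemin library (0.19), and PSME2 (edgeR adjusted p = 0.0469) lost its call in 13 of 19 alternatives. These included leaving out the first Ctrl library, any 1 DBIC or hemin library or the second or the third DBIC+Hemin library, with values of 0.11 to 0.17. PSMA3 (0.17 ± 0.052) lost its call without the first or second DBIC library or the second DBIC+Hemin library (0.13 to 0.16), and PSMD3 (0.13 ± 0.039) without the first or the third DBIC library or the third DBIC+Hemin library (0.097 to 0.14). PSMG1 was the core assembly gene called higher, at 47.2, 47.3 and 42.1 CPM in DBIC and 50.7, 53.8 and 51.9 CPM in DBIC+Hemin (0.20 ± 0.049, edgeR adjusted p = 0.011). PSMG4 (0.18 ± 0.069, edgeR adjusted p = 0.0696), PSMG2 (0.14 ± 0.097), PSMG3 (0.091 ± 0.15), PSME3 (0.12 ± 0.28) and PSMF1 (0.43 ± 0.18, edgeR adjusted p = 0.104) were not called, nor were PSMB6 (0.13 ± 0.068), PSMB7 (0.076 ± 0.038), PSMB9 (0.21 ± 0.19), PSMD14 (0.071 ± 0.051), PSMD5 (0.051 ± 0.042) and PSMD9 (0.041 ± 0.049).

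With hemin alone, none of the 47 members was called higher or lower by edgeR in Hemin against Ctrl, beside 1.47% and 2.59% of all genes, and DESeq2 also called 0. An unadjusted p of 0.05 was passed by 3 members in edgeR, PSMC1 (-0.14), PSME1 (-0.12) and PSMB1 (-0.068), and by 2383 of all 14287 genes tested. The median log2 fold change of the members was 0.0017, against 0.0026 over all genes. PSMB5 was at 149, 144 and 149 CPM (0.041 ± 0.11, an interval of -0.20 to 0.28) and PSMD10 at 22.1, 21.9 and 23.4 CPM (-0.022 ± 0.070). The estimates farthest from 0 were those of PSMF1 (0.39 ± 0.18, edgeR adjusted p = 0.33) and PSME3 (-0.39 ± 0.28, edgeR adjusted p = 0.573).

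In DBIC+Hemin against Hemin, where calls were few over all genes as well, 1 member was called lower, PSMG4, beside 3.09% of all genes, and 0 were called higher by edgeR, beside 3.71%. At an unadjusted p of 0.05 edgeR placed 2 members higher, PSMD6 (0.15 ± 0.043) and PSMC3IP (0.13 ± 0.054). That threshold was passed by 2879 of all 14287 genes tested, in either direction. DESeq2 called 1 member higher, beside 715 of all genes tested. PSMG4 was at 14.3, 13.2 and 13.3 CPM with hemin and at 10.2, 11.2 and 10.7 CPM with both, without overlap (-0.35 ± 0.068, edgeR adjusted p = 0.0111). Without the first hemin library the value was -0.31 and the edgeR adjusted p = 0.051. Against Ctrl, the DBIC+Hemin libraries had 1 member called higher, PSMC4, beside 5.66% of all genes, and 1 called lower, PSMG4, beside 6.74%. PSMC4 was at 389, 374 and 373 CPM with both agents (0.098 ± 0.024, edgeR adjusted p = 0.0226) but lost its call without the first (0.098) or the third (0.084) Ctrl library or the first DBIC+Hemin library (0.078). PSMG4 (-0.25 ± 0.068, edgeR adjusted p = 0.0348) lost its call in 9 of 19 alternatives, with values of -0.28 to -0.21 where it was lost. They included leaving out any 1 Ctrl library, the first DBIC library, the third hemin library or the first or the third DBIC+Hemin library.

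**Figure D5:**
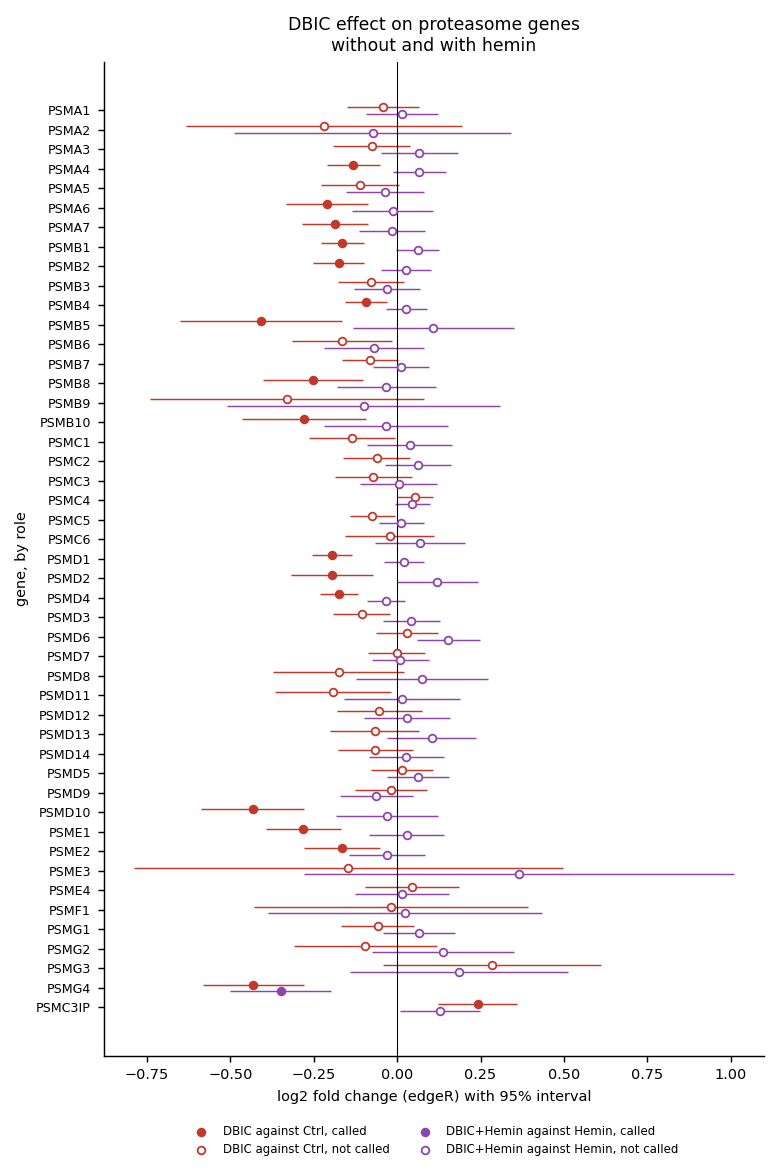
Log2 fold change (edgeR) with its 95% interval for the 47 proteasome genes tested, for DBIC against Ctrl in red and DBIC+Hemin against Hemin in purple, with called genes as filled points. Without hemin 16 genes were called lower and 1 higher, and with hemin PSMG4 alone was called, at -0.35.

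The dependence of the DBIC effect on hemin was tested directly by the interaction, which is the log2 effect of DBIC with hemin minus that without it. It was called higher for 9 members (19.1%), beside 6.4% of all genes tested, and lower for 0, beside 10.2%. No member was lower at an unadjusted p of 0.05 in edgeR, which 4127 of all 14287 genes tested passed in either direction. DESeq2 called 10 members higher and 0 lower, beside 1103 and 1511 of all genes tested. The 9 were PSMB5 (0.52 ± 0.15), PSMD10 (0.40 ± 0.099), PSMD2 (0.32 ± 0.079), PSME1 (0.31 ± 0.072), PSMB1 (0.23 ± 0.041), PSMD1 (0.21 ± 0.038), PSMB2 (0.20 ± 0.048), PSMA4 (0.20 ± 0.051) and PSMD4 (0.14 ± 0.036). They included the 3 members of the base that are not ATPases, 3 of 7 constitutive beta genes and no ATPase or lid gene. The interaction of PSMB5 (edgeR adjusted p = 0.0457) lost its call in 12 of 18 alternatives, among them the omission of any 1 library other than the second Ctrl or the third DBIC+Hemin library, with values of 0.43 to 0.54 where it was lost. The interaction lost its call for PSMA4 without the third Ctrl library (0.18), the first hemin library (0.19) or the first DBIC+Hemin library (0.18). That of PSMD4 was lost without the second Ctrl library (0.12), the second (0.14) or the third (0.13) hemin library or the first DBIC+Hemin library (0.13). PSMG4 had an interaction of 0.082 ± 0.097 (edgeR adjusted p = 0.643), with an interval of -0.13 to 0.30.

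PSMC3IP moved apart from the subunits. It was at 41.0, 37.8 and 39.4 CPM in Ctrl, 48.3, 47.1 and 44.3 CPM in DBIC and 43.5, 45.0 and 44.6 CPM in DBIC+Hemin. The log2 fold change of 0.24 ± 0.054 in DBIC against Ctrl (edgeR adjusted p = 0.00487) held in all 19 alternatives. It shares 29.9% of its exon bases with another gene, MLX.

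Of 10 partners of the proteasome that lack the PSM prefix, 1 was called higher with DBIC and 0 lower, beside 20% and 17.2% of all genes. The 1 was AKIRIN2, which brings proteasomes into the nucleus, at 36.2, 35.9 and 32.8 CPM in Ctrl and at 51.4, 47.2 and 45.6 CPM in DBIC (0.46 ± 0.063, edgeR adjusted p = 0.000185). POMP, the maturation factor of the core, gave -0.079 ± 0.094 (edgeR adjusted p = 0.554). ADRM1, itself a base subunit that is not an ATPase, was not called. It was at 496, 510 and 499 CPM in Ctrl and at 539, 537 and 503 CPM in DBIC, so it was not lower with DBIC. In DBIC+Hemin against DBIC, AKIRIN2 was the 1 partner called, with -0.27 ± 0.063, beside 18.4% of all genes called lower.

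Of the NRF1 axis, NFE2L1 was at 249 CPM in both Ctrl and DBIC (0.0017 ± 0.061), and rose in DBIC+Hemin against DBIC (0.21 ± 0.061, edgeR adjusted p = 0.022), a call lost without the first (0.15) or the third (0.20) DBIC library or the first (0.21) or the third (0.20) DBIC+Hemin library. Of the 8 genes, 2 were called higher with DBIC, MAFK (1.16), a small MAF partner of NRF1, and SYVN1 (0.66), a ubiquitin ligase that acts on NRF1, and 1 was called lower, VCP (-0.18), which pulls NRF1 out of the endoplasmic reticulum. These counts are near the 20% and 17.2% of all genes called higher and lower. Hemin added to DBIC gave the opposite sign for all 3, with -0.92 for MAFK, -0.50 for SYVN1 and 0.12 for VCP, all called. MAFG, also called there at 1.95, varied within groups (113, 30.5 and 116 CPM in Ctrl and 25.6, 105 and 104 CPM in hemin) and lost its call without any 1 of the DBIC (1.94 to 1.98) or DBIC+Hemin libraries (1.92 to 1.98).

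Of 11 ubiquitin and shuttle genes, 2 were called higher and 2 lower with DBIC, near the 20% and 17.2% of all genes. Those called higher were 2 zinc finger factors of the proteasome, ZFAND5 (0.50 ± 0.040) and ZFAND2A (0.38 ± 0.070). UBQLN2, a shuttle for ubiquitinated proteins, was among those called lower (-0.22 ± 0.046). In DBIC+Hemin against DBIC, 2 of the 11 were called higher and 2 lower, beside 13.5% and 18.4% of all genes. RAD23B, another shuttle, was among those called higher (0.11), and ZFAND5 (-0.35) and ZFAND2A (-0.21) were called lower. ZFAND2A lost that call in 10 of 19 alternatives, among them the omission of the first or the third Ctrl, any 1 DBIC, the second hemin or the second or the third DBIC+Hemin library, with an edgeR adjusted p of at most 0.123 and a value of -0.17 without the third DBIC+Hemin library.

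In the interferon context of the immunoproteasome, IRF1, a transcription factor of the inducible beta genes, was at 13.1, 13.1 and 14.3 CPM in Ctrl, 47.5, 39.4 and 43.7 CPM in DBIC and 14.9, 15.3 and 16.7 CPM in DBIC+Hemin. It rose in DBIC against Ctrl (1.69 ± 0.081) and fell in DBIC+Hemin against DBIC (-1.48 ± 0.080), the reverse of PSMB8 and PSMB10. Of the 9 genes of this context, 1 was called higher with DBIC and 4 lower, beside 20% and 17.2% of all genes. TAP1 (-0.19) and TAP2 (-0.21), the subunits of the peptide transporter for MHC class I, were among those called lower. TAP1 lost its call without the second Ctrl or second DBIC library (-0.18 and -0.14). TAP2 lost its call without the second or the third Ctrl, the first or the third DBIC, the first hemin or any 1 DBIC+Hemin library (-0.24 to -0.13). IRF9 (-1.19), also called lower, was at 6.45, 2.70 and 1.82 CPM in Ctrl. It gave -0.50 and no call without the first Ctrl library, and -1.24 to -1.12 and no call without any 1 of the DBIC libraries. TAP1 (-0.19), TAP2 (-0.21) and IRF9 (-1.19) also lost their calls in a fit of the groups compared alone. In DBIC+Hemin against DBIC, 3 of the 9 were called higher and 2 lower, beside 13.5% and 18.4% of all genes. NLRC5 (0.52), which switches on MHC class I genes, and TAP1 (0.28) were among those called higher. STAT2 (-0.22) was called lower with IRF1.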

How the data were processed

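RNA was extracted with Trizol and libraries were prepared by a company. The submitters' processing notes name Trim Galore, Subread and featureCounts with hg38; versions, strand setting and handling of multimapping reads are not given in the sources used here. The authors deposited whole-number read counts per gene, TPM and FPKM for each of the 12 libraries. Differences were tested on the deposited counts with edgeR 4.0.16 in R 4.3.3 (filterByExpr, TMM factors, robust quasi-likelihood F test, 1 mean per group, 8 residual degrees of freedom), with Benjamini-Hochberg adjustment over the 14287 genes that passed the filter, and called at an adjusted p under 0.05. CPM were scaled by TMM factors, with a prior count of 2 for log2 values. The deposited TPM served to compare levels between genes, and the deposited FPKM to check gene lengths. Promoter windows were from RefSeq and exon overlaps from GENCODE 29. Scripts were tested on simulated data. Called members with the 8 largest rises and 8 largest falls of a comparison were named, with 20 members given whatever their values. Some genes of the other lists are not reported here. The members and lists were chosen with earlier results of these data known. Alternatives were DESeq2 1.42.0, other scalings and filters, the compared groups alone, a replicate block and each library left out.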

Additional observations from a re-analysis of the deposited data

Results flagged for a closer look

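The effect of DBIC with hemin differed from that without it for 9 members by the interaction term in edgeR, over 12 libraries. The difference on the log2 scale was 0.52 for PSMB5, 0.40 for PSMD10, 0.32 for PSMD2, 0.31 for PSME1, 0.23 for PSMB1, 0.21 for PSMD1, 0.20 for PSMB2, 0.20 for PSMA4 and 0.14 for PSMD4. The edgeR adjusted p ran from 0.00297 for PSMD1 to 0.0457 for PSMB5. With 3 libraries in each group, no group was large enough for a search for outlying samples.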

How the results depend on the processing

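The members' median log2 fold change kept its sign under the 19 alternatives in DBIC against Ctrl, DBIC+Hemin against DBIC and DBIC+Hemin against Hemin, and under the 18 run for the interaction. It lay near 0 and changed sign in Hemin against Ctrl (0.0017, but -0.00032 with library size only, -0.0074 without the first and -0.00046 without the second hemin library) and in DBIC+Hemin against Ctrl (0.0060, but -0.018 with library size only and -0.0059 without the first DBIC+Hemin library). The called members with the 8 largest rises or falls of a comparison kept their direction under the alternatives. With upper-quartile factors in edgeR the median log2 fold change of the members was -0.17 in DBIC against Ctrl, 0.19 in DBIC+Hemin against DBIC and 0.19 in the interaction. Then 32 members were called higher in DBIC+Hemin against DBIC and 14 in the interaction. For the interaction, the share of higher among the calls over all genes went from 38.5% to 55.4%. DESeq2 called 1 member higher in DBIC+Hemin against Hemin and 2 in DBIC+Hemin against Ctrl, beside 715 and 971 of all genes tested. In DBIC+Hemin against Ctrl, 0 members were called higher with library size only, 0 lower with the replicate block, and 0 in either direction in a fit of the groups compared. Leaving out 1 library at a time gave medians of -0.0059 to 0.045 in DBIC+Hemin against Ctrl and 0.12 to 0.16 in DBIC+Hemin against DBIC. The members called were then 0 to 3 higher and 0 to 1 lower in DBIC+Hemin against Ctrl, 13 to 21 higher and 0 to 1 lower in DBIC+Hemin against DBIC, 0 to 1 higher and 0 to 1 lower in DBIC+Hemin against Hemin, 12 to 19 lower in DBIC against Ctrl and 6 to 11 higher in the interaction. Of the calls, 11 of 17 in DBIC against Ctrl, 9 of 20 in DBIC+Hemin against DBIC and 6 of 9 in the interaction were made under every alternative. With the replicate number as a block, 17 members were called lower in DBIC against Ctrl, 19 higher in DBIC+Hemin against DBIC and 8 higher in the interaction. Same-numbered libraries did not deviate together, since 0 of 18 pairs had a correlation over 0.1 across genes (-0.046 to 0.081). With library size only, the share of higher among all calls went from 54.6% to 42.3% in DBIC+Hemin against Hemin and from 45.6% to 34.4% in DBIC+Hemin against Ctrl. The cause of these changes was not tested. Depth limited PSMB9 most, at 165 to 268 counts per library.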
